A study of Sus scrofa with 24 samples.

Results

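The genes described here are 10 regulators and markers of muscle formation, chosen by name: PAX7, MYF5, MYOD1, MYOG, MYF6, MEF2A, MEF2C, MEF2D, MSTN and NCAM1. All 10 are in the deposited table, with 35 of its 22154 transcripts, and they make up 10 of the 12020 genes obtained when transcripts were summed per symbol and chromosome. Their RNA was sequenced in longissimus dorsi, the long muscle along the back, of 24 pigs. The animals were Duroc x Luchuan crossed pigs, drawn per the labels from 265 F1 offspring of 8 boars and 112 sows. They had the same diet, farm and abattoir and were slaughtered at 210 ± 6 days, and the muscle was sampled 25 minutes after death. By their labels 12 animals had high and 12 had low intramuscular fat (IMF), which is stored between and within muscle fibres, and the series title calls both extreme phenotypes. The fat content of each animal is not used here, and neither litter nor sex is a labelled variable. Each library comes from 1 animal, so p-values measure the spread between animals. The tests treat the 24 animals as independent. Some animals of the same group share the first 9 digits of their identifier, and keeping 1 animal per such set leaves 21. Whether those animals are related is not given in the labels.

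Skeletal muscle forms when precursor cells fuse into long fibres, and adult muscle keeps a reserve of such precursors, the satellite cells, under the sheath of each fibre. PAX7 marks those cells. The myogenic basic helix-loop-helix factors MYF5 and MYOD1 commit precursors to muscle, and MYOG and MYF6 act as they differentiate. MEF2 factors bind beside them at muscle genes, while myostatin, the product of MSTN, is a secreted signal that limits muscle growth. NCAM1 is a cell adhesion protein carried by satellite cells, by the nerve-muscle junction and by fibres that have lost their nerve.

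None of the 10 genes passed the test between groups. Levels are FPKM, fragments per kilobase of transcript scaled to library size, summed over a gene's listed transcripts; they are corrected for length and may be compared between genes. The test was limma on log2(FPKM + 1) over the 11760 genes whose mean reached 0.5 FPKM, and a gene was called at a Benjamini-Hochberg adjusted p under 0.05. Of all genes tested, 6 were called, a share of 0.051%. An unadjusted p under 0.05 was reached by 905, or 7.7%, and by 1 of the 10 members, MYOD1. Of the 10 log2 fold changes, 6 were above 0. Their median was 0.02, against 0.08 for all genes. All 10 members passed the filter on low values and were above 0 in all 24 animals.

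The libraries were estimated at 32.9 to 40.8 M reads (M for mega), with means of 36.2 ± 2.43 M in high IMF and 36.9 ± 1.28 M in low IMF animals (SD, n = 12 each). The 10 most abundant genes took 20.2% of all FPKM in high IMF animal 7 and 18.5% in low IMF animal 10, against a mean of 26.8% in high IMF and 29.3% in low IMF animals. The same 2 animals had the lowest summed FPKM of 12 muscle fibre markers, at 17220 in high IMF animal 7 and 19425 in low IMF animal 10. Most of that sum is 1 gene, ACTA1, with a mean of 24431 FPKM over all animals. The lowest ACTA1 value was 1012 FPKM in high IMF animals (median 22865) and 8975 FPKM in low IMF animals (median 30337). A low sum therefore does not show that the other markers were low. The 12 markers summed to at most 46716 FPKM in high IMF and 53042 FPKM in low IMF animals. All 12 were listed, but myoglobin (MB) was at 0 to 2.35 FPKM. In a bulk sample, fewer cells of a type and less RNA per cell cannot be told apart.

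The 10 genes covered a wide range of levels. Over all 24 animals MYF6 had the highest mean, 31.7 ± 9.59 FPKM (SD, n = 24). MEF2C, MEF2D, MYOD1 and MEF2A followed at 24.2 ± 10.5, 23.4 ± 3.67, 21.8 ± 7.80 and 21.5 ± 6.90 FPKM. Those 4 could not be ordered beyond their spread: each was above the next in only 11 to 15 of the 24 animals. MYOG averaged 9.15 ± 2.76 FPKM, below MEF2A in 23 animals. MSTN at 5.33 ± 2.20 FPKM and NCAM1 at 4.16 ± 3.45 FPKM came next, and MSTN was the higher in 17 animals. The satellite cell factor PAX7 at 1.38 ± 0.55 FPKM and the early commitment factor MYF5 at 0.997 ± 0.446 FPKM were lowest, PAX7 being the higher in 19 animals. MEF2D was the steadiest member, with a 1.79-fold range over the animals, and NCAM1 varied most, with a 24.9-fold range.

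**Figure D1:**
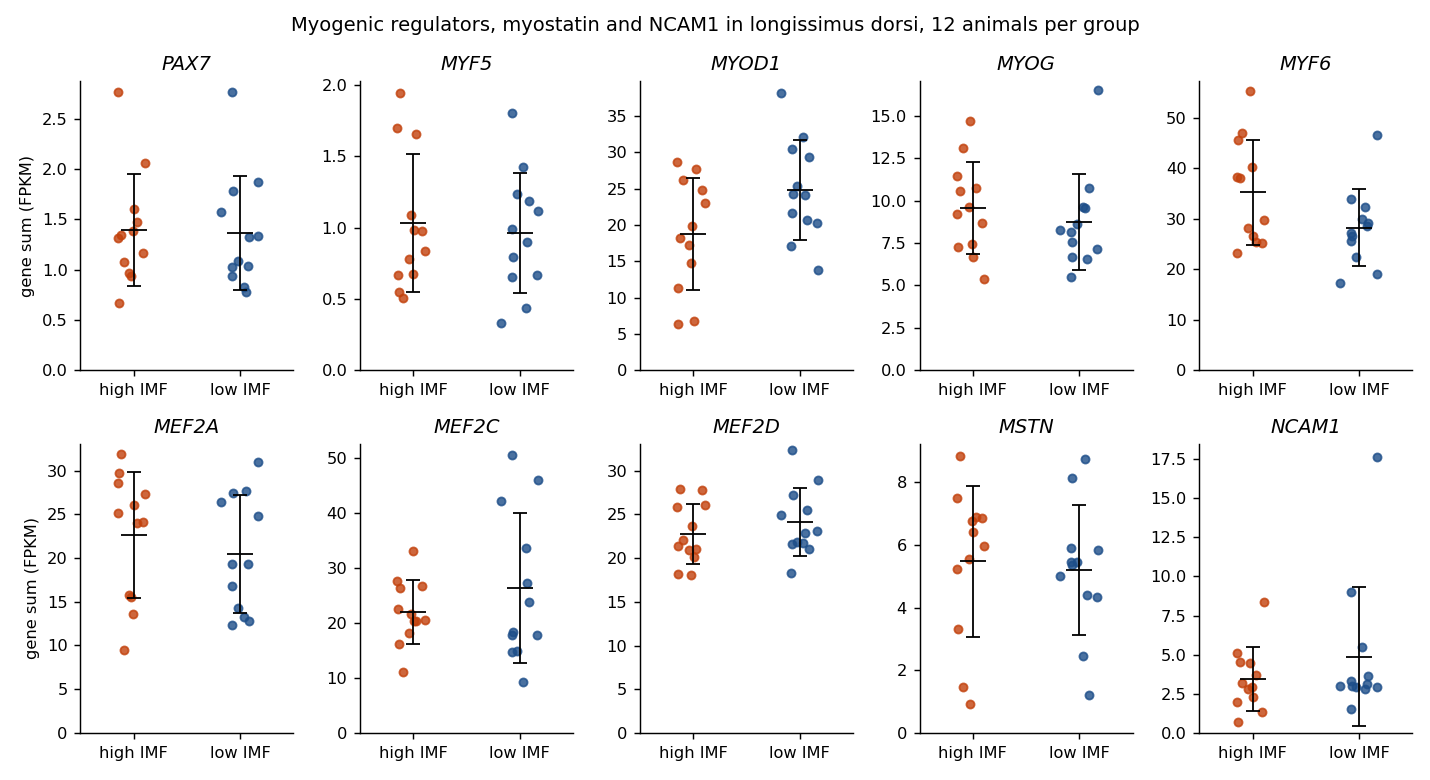
Each panel shows 1 gene, with the gene's summed FPKM on the vertical axis (from 0) and 1 point per animal, high IMF left and low IMF right, 12 animals each; bars are mean ± SD. The groups overlap for every gene; MYOD1 lies lower in most high IMF animals, MYF6 higher, and NCAM1 has 1 low IMF animal at 17.6 FPKM.

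PAX7, the paired box factor of satellite cells, lies on chromosome 6 from 77161437 to 77268570 on the plus strand (Sscrofa11.1, as are all positions here, from the deposited table). In high IMF animals it ran from 0.67 to 2.76 FPKM with a median of 1.33 FPKM. In low IMF animals it ran from 0.774 to 2.77 FPKM with a median of 1.21 FPKM. The groups covered the same range, and 1 animal in each, high IMF animal 1 and low IMF animal 11, stood at the top. As a log2 fold change, high over low IMF was 0.02 (SE 0.13, limma adjusted p = 0.978), and it turned negative with TMM scaling (-0.04). The table lists 2 PAX7 transcripts, both of 9 exons: the reference transcript of 4277 bases and an assembled one of 5469 bases. The reference transcript held 50.4 ± 28.6% of PAX7 in high IMF and 54.9 ± 21.4% in low IMF animals (SD, n = 12 each), and it was listed at 0 in 3 animals.

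MYF5, the earliest of the myogenic helix-loop-helix factors to appear in the embryo, lies on chromosome 5 from 100753501 to 100755494 on the minus strand, as 1 reference transcript of 3 exons and 766 bases. It ran from 0.508 to 1.95 FPKM with a median of 0.907 FPKM in high IMF animals. It ran from 0.329 to 1.80 FPKM with a median of 0.945 FPKM in low IMF animals. The ranges overlapped almost wholly. Its log2 fold change was 0.05 (SE 0.13, limma adjusted p = 0.954), and -0.01 with TMM scaling. At the estimated depth these levels correspond to 8.9 to 51.2 reads per library, with a median of 25.9, so MYF5 carries more counting error than any other member.

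MYOD1 had the largest difference of the 10 on the log2(FPKM + 1) scale, and its mean was lower in high IMF animals. In FPKM the means of MYF6 lay farther apart, and as a ratio of means, high over low IMF, NCAM1 at 0.709 lay farther from equality than MYOD1 at 0.756. This determination factor lies on chromosome 2 from 41413648 to 41424482 on the minus strand. In high IMF animals it ran from 6.30 to 28.7 FPKM with a median of 19.1 FPKM. In low IMF animals it ran from 13.8 to 38.2 FPKM with a median of 24.2 FPKM. Only 4 high IMF animals were above the low IMF median, 10 low IMF animals were above the high IMF median, and 4 low IMF animals were above every high IMF animal, so the groups overlapped but were offset. The means were 18.8 ± 7.76 FPKM in high IMF and 24.8 ± 6.84 FPKM in low IMF animals. High over low IMF, the log2 fold change was -0.47 (SE 0.22, 95% interval -0.92 to -0.02, p = 0.0411), and it did not pass the correction over all genes (limma adjusted p = 0.635). With TMM scaling it was -0.58 (limma adjusted p = 0.801).

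Both MYOD1 transcripts carried the difference in like proportion. The reference transcript has 3 exons and 1933 bases, and the assembled one has 4 exons and 3738 bases and reaches 8147 bases farther along the chromosome. The reference transcript averaged 15.9 ± 6.92 FPKM in high IMF and 20.7 ± 5.94 FPKM in low IMF animals (limma adjusted p = 0.788). The assembled one averaged 2.86 ± 0.959 FPKM in high IMF and 4.09 ± 1.35 FPKM in low IMF animals, a log2 fold change of -0.40 (SE 0.16, unadjusted p = 0.020, limma adjusted p = 0.688). The reference transcript was the larger in all 24 animals. Its share was 83.8 ± 3.63% in high IMF and 83.4 ± 3.42% in low IMF animals, a difference of 0.372 percentage points (limma p = 0.806).

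MYOG, or myogenin, which acts when precursors leave the cell cycle and fuse, lies on chromosome 9 from 113779112 to 113785381 on the minus strand. It ran from 5.38 to 14.7 FPKM with a median of 9.44 FPKM in high IMF animals. It ran from 5.48 to 16.5 FPKM with a median of 8.22 FPKM in low IMF animals. The highest value belonged to low IMF animal 10, and otherwise the groups overlapped. The log2 fold change was 0.12 (SE 0.15, limma adjusted p = 0.859). The reference transcript of 3 exons held 86.4 ± 15.3% of MYOG in high IMF and 89.4 ± 13.9% in low IMF animals.

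MYF6, also called MRF4, is the member of the family with the highest level in mature fibres. Its position on chromosome 5 from 100760487 to 100764767, on the minus strand, begins 4993 bases after the end of MYF5. It ran from 23.2 to 55.3 FPKM with a median of 33.9 FPKM in high IMF animals. It ran from 17.3 to 46.5 FPKM with a median of 27.9 FPKM in low IMF animals. Only 1 low IMF animal, animal 10, exceeded the high IMF median, and 2 high IMF animals exceeded every low IMF animal. The means were 35.2 ± 10.4 FPKM in high IMF and 28.2 ± 7.58 FPKM in low IMF animals. Its log2 fold change was 0.30 (SE 0.15, 95% interval -0.02 to 0.61, unadjusted p = 0.0619, limma adjusted p = 0.659), and 0.19 with TMM scaling.

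MYF6 was split between its reference transcript of 3 exons and 3758 bases, and an assembled transcript of 2 exons and 1581 bases. The reference transcript held 61.3 ± 9.23% in high IMF and 62.4 ± 8.82% in low IMF animals, and it was the larger in 22 animals.

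**Figure D2:**
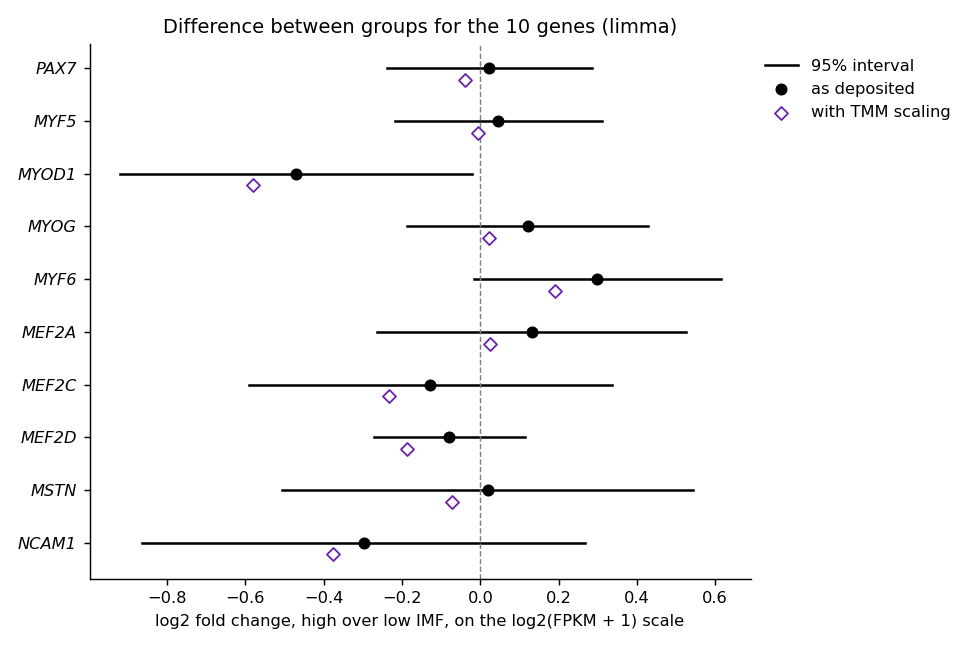
Black points are limma log2 fold changes of high over low IMF on the log2(FPKM + 1) scale, with 95% intervals as lines, for the 10 genes; open diamonds are the same with TMM-scaled FPKM. The MYOD1 interval lies below 0, from -0.92 to -0.02, the other 9 include 0, and TMM moves every estimate to the left.

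The sum of the 4 myogenic helix-loop-helix factors was close between groups, and its makeup is given as a description, without a test. It averaged 64.5 ± 12.7 FPKM in high IMF and 62.7 ± 9.69 FPKM in low IMF animals. MYF6 held 54.6 ± 11.7% of that sum in high IMF and 44.8 ± 8.06% in low IMF animals. MYOD1 held 28.9 ± 11.3% in high IMF and 39.9 ± 9.59% in low IMF animals. MYOG made up 14.8 ± 2.86% in high IMF and 13.8 ± 3.01% in low IMF animals, and MYF5 made up 1.65 ± 0.76% in high IMF and 1.52 ± 0.56% in low IMF animals. MYF6 was the largest of the 4 in 10 high IMF and 7 low IMF animals, and MYOD1 was the largest in the other 2 high IMF and 5 low IMF animals. These shares are formed from the levels of MYF6 and MYOD1 given above, neither of which passed the test between groups.

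The ratio of MYF6 to MYOD1 within an animal was formed after both genes' values had been seen, so it is given as a description. It ran from 0.809 to 6.05 with a median of 1.91 in high IMF animals. It ran from 0.454 to 3.36 with a median of 1.10 in low IMF animals. The ratio exceeded 2 in 6 high IMF animals and in 1 low IMF animal, and that 1 was animal 10. Being a ratio within a library, it does not depend on how libraries are scaled.

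**Figure D3:**
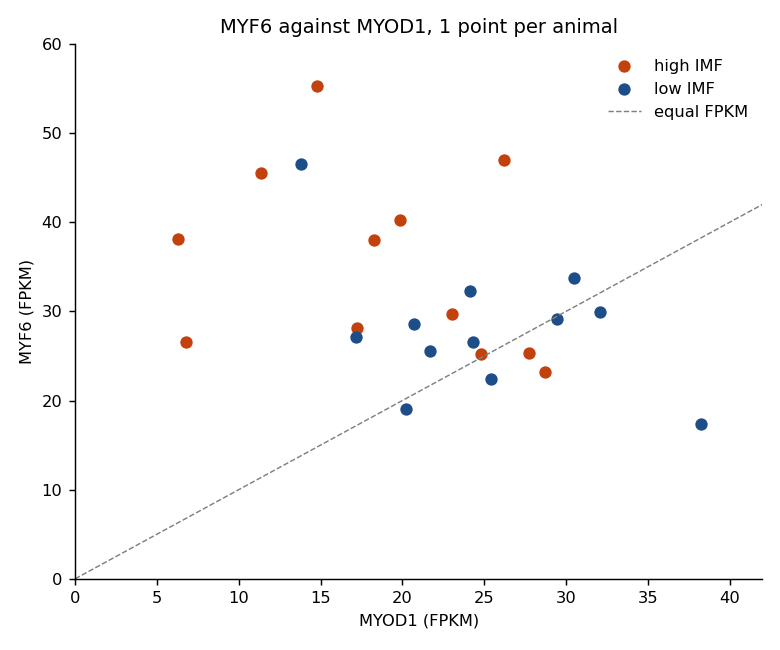
MYF6 FPKM (vertical axis) is plotted against MYOD1 FPKM (horizontal axis), 1 point per animal, high IMF in orange and low IMF in blue; the dashed line marks equal FPKM. MYF6 was the higher in 10 of 12 high IMF and 7 of 12 low IMF animals, and the 2 animals with MYOD1 under 10 FPKM are both high IMF.

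The 3 MEF2 genes, which encode partners of the helix-loop-helix factors at muscle promoters, were present at similar levels. Their sum averaged 67.4 ± 12.1 FPKM in high IMF and 70.9 ± 19.9 FPKM in low IMF animals. MEF2A held 33.1 ± 7.72% in high IMF and 29.3 ± 6.85% in low IMF animals. MEF2C held 32.5 ± 5.99% in high IMF and 35.3 ± 9.72% in low IMF animals. MEF2D held 34.4 ± 6.08% in high IMF and 35.4 ± 6.56% in low IMF animals. No one of them led throughout: over all animals MEF2A was the largest in 8, MEF2C in 9 and MEF2D in 7.

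MEF2A lies on chromosome 1 from 138341158 to 138511314 on the plus strand. It ran from 9.51 to 31.96 FPKM with a median of 24.7 FPKM in high IMF animals. It ran from 12.3 to 31.0 FPKM with a median of 19.3 FPKM in low IMF animals. The groups overlapped over nearly all of their range. High over low IMF, the log2 fold change was 0.13 (SE 0.19, limma adjusted p = 0.893). MEF2A has 10 listed transcripts of 11 to 13 exons, 3 of them reference transcripts, which averaged between 2.38% and 8.03% of the gene in either group. The leading assembled transcript, of 12 exons and 5432 bases, held 34.8 ± 16.8% in high IMF and 24.8 ± 14.4% in low IMF animals (limma p = 0.123, adjusted p = 0.984). It was the largest in 16 of 24 animals. Its difference in share, high minus low IMF, was 0.543 percentage points in animals whose identifiers begin with 15. In those beginning with 16 it was 19.6 percentage points. The 7 assembled transcripts share a start and an end and differ in length by at most 188 bases, so how reads were divided among them is uncertain.

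MEF2C, on chromosome 2 from 96122412 to 96296898 on the minus strand, was the MEF2 gene with the widest spread among low IMF animals. It ran from 11.08 to 33.0 FPKM with a median of 21.1 FPKM in high IMF animals. It ran from 9.26 to 50.5 FPKM with the same median, 21.1 FPKM, in low IMF animals. Low IMF animals 6, 9, 10 and 11 were above every high IMF animal. The means were 22.035 ± 5.80 FPKM in high IMF and 26.3 ± 13.6 FPKM in low IMF animals, and the log2 fold change was -0.13 (SE 0.23, limma adjusted p = 0.921). All 6 listed MEF2C transcripts were assembled. One of 11 exons and 6233 bases held 53.1 ± 25.3% in high IMF and 61.3 ± 16.05% in low IMF animals and was the largest in 22 animals.

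MEF2D, on chromosome 4 on the plus strand, varied least from animal to animal. It ran from 18.1 to 27.9 FPKM with a median of 21.7 FPKM in high IMF animals. It ran from 18.3 to 32.4 FPKM with a median of 23.0 FPKM in low IMF animals. Low IMF animals 10 and 11 were the only ones above the high IMF range. The log2 fold change was -0.08 (SE 0.09, limma adjusted p = 0.851). With TMM scaling it was -0.19 (unadjusted p = 0.022, limma adjusted p = 0.813).

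The span of MEF2D, 93581609 to 93702828, includes a separate transcript of 2 exons and 469 bases that begins 114 bases after the end of the reference transcript and carries the same symbol. That transcript averaged 3.33 ± 2.14 FPKM in high IMF and 4.45 ± 1.66 FPKM in low IMF animals. Without it the MEF2D sum averaged 19.4 ± 3.28 FPKM in high IMF and 19.7 ± 4.01 FPKM in low IMF animals, a log2 difference of -0.01. On the deposited scale most of the MEF2D difference lay in that transcript, and the split was not computed with TMM scaling. The authors' deposited fold of low over high IMF was 1.21 for that transcript (their p-value 0.395). For the assembled transcript of 12 exons their fold was 1.09 (their p-value 0.0597). The reference transcript held 2.47 ± 1.28% in high IMF and 2.19 ± 1.299% in low IMF animals, and an assembled transcript of 12 exons held 83.1 ± 7.48% in high IMF and 79.2 ± 6.62% in low IMF animals.

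MSTN, which encodes the growth inhibitor myostatin, lies on chromosome 15 from 94620269 to 94628630 on the minus strand as 1 reference transcript of 3 exons and 4575 bases. It ran from 0.929 to 8.83 FPKM with a median of 6.19 FPKM in high IMF animals. It ran from 1.21 to 8.73 FPKM with a median of 5.41 FPKM in low IMF animals. Both groups held a few low animals, the lowest being high IMF animals 6 and 2 and low IMF animals 3 and 2, and otherwise the values overlapped. Its log2 fold change was 0.02 (SE 0.26, 95% interval -0.51 to 0.54, limma adjusted p = 0.991), and it was -0.07 with TMM scaling.

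NCAM1, the neural cell adhesion molecule, lies on chromosome 9 from 40628685 to 40960557 on the plus strand. It ran from 0.707 to 8.36 FPKM with a median of 3.05 FPKM in high IMF animals. It ran from 1.501 to 17.6 FPKM with a median of 3.09 FPKM in low IMF animals. The medians nearly coincided, and low IMF animals 10 and 11, at 17.6 and 9.02 FPKM, were above every high IMF animal. The means were 3.46 ± 2.03 FPKM in high IMF and 4.87 ± 4.44 FPKM in low IMF animals. High over low IMF, the log2 fold change was -0.30 (SE 0.27, limma adjusted p = 0.810), and -0.13 without low IMF animal 10. With TMM scaling it was -0.38.

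The NCAM1 sum joins transcripts with different group values. The reference transcript, of 16 exons, begins 262781 bases after the first assembled start. It averaged 1.08 ± 0.987 FPKM in high IMF and 0.700 ± 0.480 FPKM in low IMF animals (limma adjusted p = 0.915). The largest assembled transcript, of 19 exons, ends 12808 bases beyond the reference and averaged 1.38 ± 0.932 FPKM in high IMF and 1.62 ± 1.55 FPKM in low IMF animals (limma adjusted p = 0.976). The other 4 assembled transcripts, of 17 to 20 exons, stop where the reference does, to within a base. Summed, these 4 ran from 0.190 to 1.93 FPKM with a median of 0.748 FPKM in high IMF animals. In low IMF animals they ran from 0.300 to 10.5 FPKM with a median of 1.63 FPKM. In 5 low IMF animals that sum was above every high IMF animal, and in 9 it was above the high IMF median. The 4 were grouped after their values had been seen, so the sum has no test.

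Singly, none of the 4 passed. Fitted without a filter on low values, since 3 of them average under 0.5 FPKM, their log2 fold changes were -0.25 to -0.39. The largest, of the 17-exon transcript, was -0.39 (SE 0.14, unadjusted p = 0.010, limma adjusted p = 0.585). That transcript was also the 1 member transcript whose share of its gene had an unadjusted p under 0.05. Its share was 4.99 ± 5.64% in high IMF and 11.13 ± 5.06% in low IMF animals, a difference of -6.14 percentage points (limma p = 0.0102, adjusted p = 0.984).

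**Figure D4:**
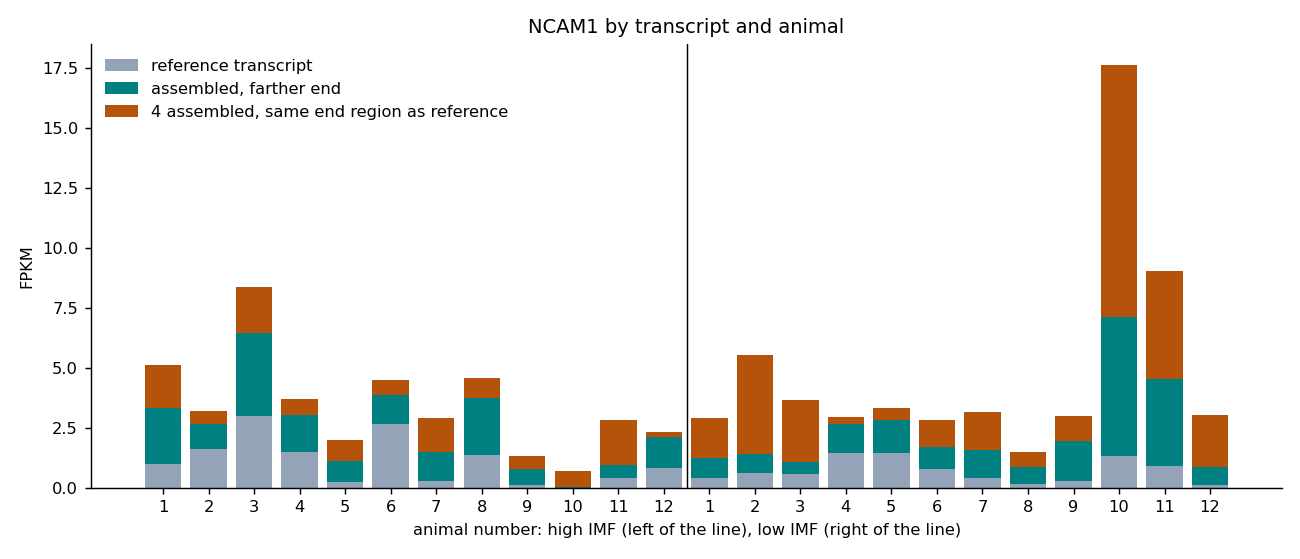
Bars stack NCAM1 FPKM by transcript for each animal, high IMF animals 1 to 12 left of the line and low IMF animals 1 to 12 right of it: the reference transcript, the assembled transcript with the farther end, and the 4 assembled transcripts that stop with the reference. Low IMF animal 10 reaches 17.6 FPKM, of which the 4 transcripts make up 10.5 FPKM.

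Across all transcripts the picture for the members was the same. Of the 35 member transcripts, 22 were above 0 in all animals and 31 had a mean of at least 0.5 FPKM. None was called, against 4 of 21405 transcripts overall (0.0187%), and 1 had an unadjusted p under 0.05, against 6.34% of all transcripts. Of 33 member shares of a gene sum none was called, as was none of the 15021 shares tested (0%) by limma, and 1 had an unadjusted p under 0.05, against 4.86% of all shares. In the authors' deposited table, 6 of the 35 transcripts had a p-value under 0.05, against 6.39% of all 22154 transcripts. They were the 5 assembled NCAM1 transcripts and the assembled MYOD1 transcript, so 5 of the 6 share 1 gene. In the authors' deposited table the fold of low over high IMF was 1.27 to 1.42 for those NCAM1 transcripts and 1.299 for the MYOD1 transcript. The smallest p-value, 0.00136, of the 17-exon NCAM1 transcript, had a q-value of 0.685 in the authors' deposited table.

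NCAM1 is also carried by nerve. Of 10 Schwann cell and nerve markers 7 were listed, and their summed FPKM ran from 20.05 to 42.6 with a median of 33.8 in high IMF animals, against 30.4 to 89.7 with a median of 41.1 in low IMF animals. The other 3 were not analysed here. The animal with the highest nerve sum, low IMF animal 8, had the lowest NCAM1 of its group, 1.501 FPKM, and low IMF animals 10 and 11 had nerve sums of 54.7 and 39.7 FPKM. The part of nerve in the NCAM1 levels was not tested. NCAM1 also marks natural killer cells, of whose 7 listed markers with T cells 2 were measured, NKG7 and CD2, with a sum of 0.304 to 4.10 FPKM in high IMF and 0.444 to 3.07 FPKM in low IMF animals. Fat cell markers were all 7 listed and summed to 64.3 to 206 FPKM in high IMF and 31.1 to 147 FPKM in low IMF animals, the highest low IMF value being that of animal 10.

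The animal identifiers begin with 16 or 15, 6 high and 6 low IMF animals each, and the meaning of these digits is not given in the labels. Between the identifier sets no gene was called by limma (0%), and among the members 2 had an unadjusted p under 0.05, which 6.47% of all genes reached. PAX7 averaged 1.64 ± 0.642 FPKM in set 16 and 1.12 ± 0.282 FPKM in set 15, a log2 fold change of 0.29 (SE 0.12, p = 0.0197, limma adjusted p = 0.767). NCAM1 averaged 5.39 ± 4.46 FPKM in set 16, which holds low IMF animals 10 and 11, and 2.94 ± 1.34 FPKM in set 15 (log2 fold change 0.56, SE 0.26, p = 0.0391, limma adjusted p = 0.767). Within the sets the difference of high over low IMF for MYOD1 was -0.60 on the log2 scale in set 16 and -0.35 in set 15. For MYF6 it was 0.13 in set 16 and 0.47 in set 15. Both kept their direction. PAX7, MYF5, MEF2C and MEF2D changed sign between sets, MEF2C from 0.01 in set 15 to -0.27 in set 16 and MEF2D from 0.01 to -0.17. No member's interaction of group and set passed (limma adjusted p at least 0.998). With 6 animals per group in each set, that test cannot show that the differences were alike.

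Levels of the members were then compared with each other over the 24 animals, in 45 pairs, as log2(FPKM + 1). Pearson's r was positive in 31 pairs and ran from -0.41 to 0.62, and 10 pairs had an unadjusted permutation p under 0.05. After adjustment over the 45 pairs 3 passed by Pearson's r and none by Spearman's rho. The values share a library and its composition, so a relation between a pair of genes includes what the libraries have in common.

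The satellite cell factor PAX7 and MEF2D had r = 0.62 and rho = 0.57 (permutation p = 0.00106 and 0.00448, adjusted p = 0.0337 and 0.101). Without the 2 animals farthest from the PAX7 median r was 0.49, and it was 0.57 within high IMF and 0.70 within low IMF animals. MEF2A and MSTN had r = 0.59 and rho = 0.48 (permutation p = 0.00182 and 0.0183, adjusted p = 0.0337 and 0.206). For that pair r was 0.55 without 2 animals, 0.59 within high IMF and 0.61 within low IMF animals. MEF2C and MEF2D had r = 0.59 and rho = 0.56 (permutation p = 0.00225 and 0.00466, adjusted p = 0.0337 and 0.101). Here r was 0.52 without 2 animals, 0.49 within high IMF and 0.67 within low IMF animals, and it was 0.37 with TMM scaling, against 0.55 for PAX7 with MEF2D and 0.53 for MEF2A with MSTN.

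MYOD1 and MYF6, the largest helix-loop-helix members, had the most negative r, -0.41 (rho = -0.39, permutation p = 0.0460 and 0.0585, adjusted p = 0.207 and 0.302). The relation did not pass the correction; r was -0.58 without the 2 animals lowest in MYOD1, -0.25 within high IMF and -0.44 within low IMF animals. Scaling changed which pairs stood out. With TMM scaling r was 0.64 for MYOD1 with MEF2D, against 0.38 on the deposited scale, and -0.64 for MYF6 with MSTN, against -0.39.

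**Figure D5:**
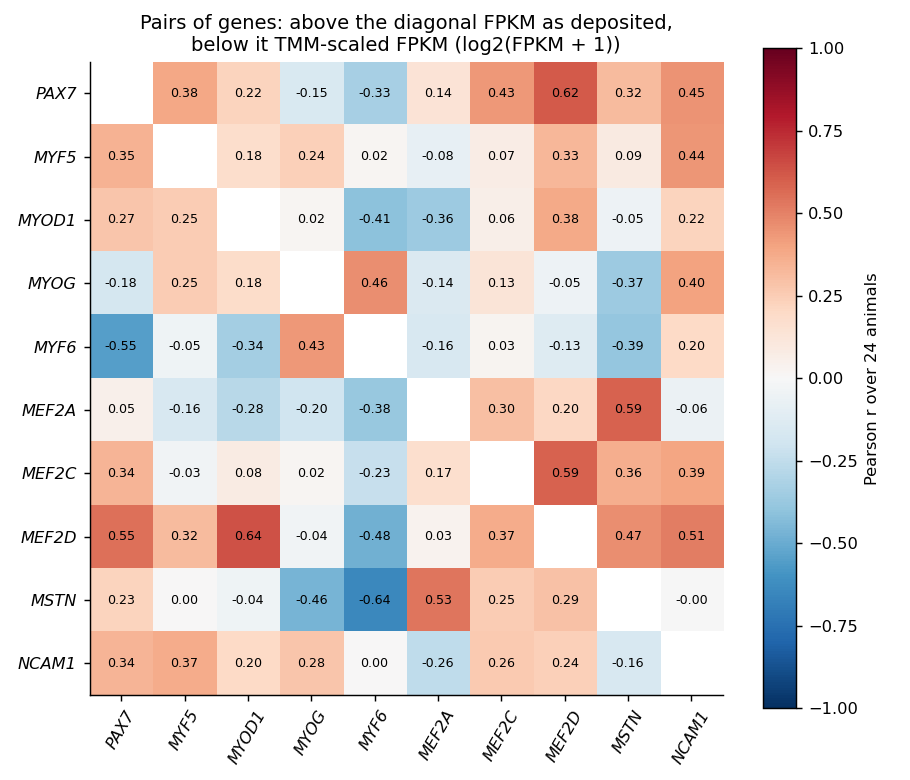
Pearson's r of log2(FPKM + 1) over 24 animals for each pair of the 10 genes, red positive and blue negative, with FPKM as deposited above the diagonal and TMM-scaled FPKM below it. The strongest pair above the diagonal is PAX7 with MEF2D at 0.62; below it MYF6 with MSTN reaches -0.64 and MYOD1 with MEF2D 0.64.

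The members were set against 4 adult myosin heavy chains, MYH7 of slow fibres and MYH2, MYH1 and MYH4 of fast fibres, since MEF2 and MYOD1 are known to act on fibre type genes in mice. Of 40 such pairs none passed the adjustment and 2 had an unadjusted permutation p under 0.05 by Pearson's r. Those were MEF2C with MYH7 (r = -0.46, rho = -0.39, permutation p = 0.0225 and 0.0621, adjusted p = 0.434 and 0.550) and MEF2C with MYH4 (r = -0.43, rho = -0.48, permutation p = 0.0351 and 0.0193, adjusted p = 0.434 and 0.550). MYOD1 had r between 0.003 and 0.30 with the 4 chains. The fast chains are near-identical neighbours, so the division of reads among them is uncertain.

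For each member the most similar other genes were found by Spearman's rho of log2(FPKM + 1) over the 24 animals, among 8008 named genes averaging 1 FPKM or more, as a description. The closest matches belonged to MYF6, with JMJD6 (0.903) and ELOF1 (0.856), and to PAX7, with CAPN6 (0.889) and PDGFD (0.864). For MEF2C a value of 0.800 was found with KPNA5, and for MEF2D a value of 0.797 with ZCCHC14. MEF2A was nearest to HCFC2 (0.793) and RNF111 (0.765), NCAM1 to SLC22A16 (0.783) and SURF4 (0.758), and MSTN to MTDH (0.777) and ZFP36L1 (0.767). MYOD1 was nearest to MAMSTR (0.698), a muscle coactivator of MEF2, and to ACTN3 (0.677), the alpha-actinin of fast fibres. MYOG with TRMT112 (0.671) and MYF5 with NUDT14 (0.668) and TMOD4 (0.631) had the weakest matches. With TMM scaling the values of the genes named here were 0.593 to 0.843.

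Other genes of the same pathways were taken from 6 lists, holding 121 entries, of which 94 were listed in the table and 93 were tested. None was called, against 0.051% of all genes tested, and 4 had an unadjusted p under 0.05, against 7.7% of all genes tested. Of the 93, 63 had a positive log2 fold change. Their median was 0.03, below the 0.08 of all genes tested, and the median of each list below is to be read beside that same 0.08. From each list the 2 genes of smallest p are described.

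Among satellite cell genes 17 were tested, with a median log2 fold change of 0.02 and 11 positive. ITGA7, the laminin receptor of satellite cells and fibres, averaged 24.1 ± 13.7 FPKM in high IMF and 39.0 ± 15.2 FPKM in low IMF animals (log2 fold change -0.85, SE 0.32, p = 0.0125, limma adjusted p = 0.527). Of the low IMF animals, 10 were above the high IMF median. SDC4, a cell surface proteoglycan of satellite cells, averaged 3.82 ± 1.15 FPKM in high IMF and 2.92 ± 1.003 FPKM in low IMF animals (log2 fold change 0.30, limma adjusted p = 0.625).

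Of 18 partners and inhibitors of the helix-loop-helix factors none had an unadjusted p under 0.05, and the median was 0.07. ID1, which keeps their partners from binding DNA, averaged 0.818 ± 0.295 FPKM in high IMF and 0.698 ± 0.270 FPKM in low IMF animals (limma adjusted p = 0.824). TCF12, an E protein partner, averaged 4.34 ± 2.52 FPKM in high IMF and 3.41 ± 2.47 FPKM in low IMF animals (limma adjusted p = 0.825).

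Of 19 MEF2 cofactors, family members and class IIa deacetylases, 12 were positive and the median was 0.03. MEF2B, the fourth gene of the family, averaged 4.66 ± 0.954 FPKM in high IMF and 3.64 ± 1.203 FPKM in low IMF animals (log2 fold change 0.31, SE 0.12, p = 0.0209, limma adjusted p = 0.558). PPP3CB, a catalytic subunit of calcineurin, the phosphatase that raises MEF2 activity, averaged 12.2 ± 8.09 FPKM in high IMF and 16.3 ± 4.36 FPKM in low IMF animals (log2 fold change -0.64, SE 0.29, limma adjusted p = 0.625). All 12 low IMF animals were above the PPP3CB median of the high IMF animals, while the highest single value was in a high IMF animal.

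Of 9 fusion and regeneration genes none had an unadjusted p under 0.05, and the median was 0.02. CHRND, the delta subunit of the acetylcholine receptor of muscle, averaged 0.593 ± 0.469 FPKM in high IMF and 1.07 ± 0.735 FPKM in low IMF animals (log2 fold change -0.36, limma adjusted p = 0.650). CHRNA1, its alpha subunit, averaged 1.66 ± 1.23 FPKM in high IMF and 2.28 ± 1.68 FPKM in low IMF animals (limma adjusted p = 0.790). Both were highest in low IMF animals 10 and 11, the animals highest in NCAM1.

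Around myostatin, 17 ligands, processing enzymes and inhibitors had a median of 0.05 with 12 positive, and 13 receptors and signal transducers had a median of 0.02 with 8 positive. FURIN, a protease that cuts the myostatin precursor, averaged 4.94 ± 1.85 FPKM in high IMF and 3.74 ± 1.95 FPKM in low IMF animals (limma adjusted p = 0.703). FST, or follistatin, which binds and blocks myostatin, averaged 6.47 ± 2.38 FPKM in high IMF and 5.001 ± 1.99 FPKM in low IMF animals (log2 fold change 0.31, SE 0.18, limma adjusted p = 0.704), and 9 high IMF animals were above the low IMF median. SMAD4, the shared transducer of the pathway, averaged 11.6 ± 2.03 FPKM in high IMF and 10.2 ± 3.06 FPKM in low IMF animals (limma adjusted p = 0.738). SMURF2, a ubiquitin ligase acting on the pathway, averaged 3.93 ± 1.75 FPKM in high IMF and 3.23 ± 1.35 FPKM in low IMF animals (limma adjusted p = 0.792).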

How the data were processed

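PolyA RNA of the longissimus dorsi of 24 pigs, 12 high and 12 low in intramuscular fat, had been sequenced as 150-base read pairs. The authors deposited 1 table with an FPKM value for every transcript in every animal, a unit inferred from the numbers themselves. Per the submitters' processing notes, HISAT2 2.0.5, StringTie 1.3.3 and the genome Sscrofa11.1 were used, without their roles. Per the file headers, the deposited table also holds a fold ratio, a p-value and q-values per transcript; the fold is low over high IMF. The annotation release and the authors' test are not given in the sources used here.

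FPKM was summed per symbol and chromosome, and 34 transcripts with a date in place of a symbol were kept by locus. Each listed transcript is above 0 in at least 19 libraries, and genes detected in fewer were not analysed here. Depth is not stated: it was inferred from the steps of FPKM times length, which fell within 0.05 base of whole numbers for 73.2% to 84.9% of 114 to 210 low values per library, so depths are relative. No count model was used. Precision is limited by the 12 animals per group and, for low genes, by depth.

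Groups come from the labels, which number no replicates; animals were numbered in accession order. Groups were compared with limma 3.58.1 (R 4.3.3), with trend and robust moderation, on log2(FPKM + 1), with all genes in 1 fit and Benjamini-Hochberg adjustment. Fold changes on that scale understate the change of low genes. The limma fit was tested on simulated data. Correlations used 100000 resamples with SciPy 1.17.1; the smallest p they can give is 1e-05. The myogenic genes and the pathway lists were chosen with earlier results of these data known. Named genes were all 10 members, from each pathway list every called gene or else the 2 of smallest p, and for each member the 2 genes of highest rho. Some of these are not reported here. Alternatives were TMM and upper-quartile scaling, filters, pseudocounts, moderation, weights, covariates, animals left out, transcripts in place of sums, and reference transcripts alone. No sequence is printed.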

Additional observations from a re-analysis of the deposited data

How the results depend on the processing

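No member was called in either direction under any alternative, and the lowest adjusted p reached was 0.251, for MYF6 without low IMF animal 10. The sign of the log2 fold change was kept in 343 of 377 alternatives, and in all 38 each for MYOD1 (-0.60 to -0.35), MYF6 (0.13 to 0.47) and MYOG (0.01 to 0.23). The median of all genes was 0.08, and -0.0004 with TMM scaling. Values that changed sign lay near 0 in most cases. With TMM scaling they were -0.0397 for PAX7, -0.0056 for MYF5 and -0.0729 for MSTN, and with upper-quartile scaling -0.0433, -0.0078 and -0.0768. With 1 animal per shared first 9 digits of the identifier they were -0.0141 for PAX7, -0.0025 for MYF5 and -0.0339 for MSTN, and a pseudocount of 0.1 gave -0.0021 for MSTN. Reference transcripts alone gave -0.0054 for PAX7, -0.34 for MEF2A, 0.0343 for MEF2D and 0.20 for NCAM1; MEF2C has no reference transcript. Within identifier set 16 alone, an alternative chosen after seeing the data, the values were -0.0429 for PAX7 and -0.0129 for MYF5, and within set 15 alone 0.0122 for MEF2C and 0.0101 for MEF2D. Leaving out each animal in turn gave -0.0395 to 0.0870 for PAX7, -0.0060 to 0.0956 for MYF5 and -0.108 to 0.165 for MSTN. It also moved values that kept their sign by over 1.5 times, to -0.242 to -0.0302 for MEF2C, 0.0745 to 0.230 for MEF2A, -0.112 to -0.0405 for MEF2D, 0.0645 to 0.202 for MYOG and -0.408 to -0.125 for NCAM1. The cause was not tested. Differences in the share of the leading transcript changed sign to -1.54 percentage points for MYOD1, 0.680 for MYOG, 0.702 for MYF6 and -0.0509 for MEF2D in set 16, and to 2.34 for MEF2C in set 15. PAX7, MYF5 and NCAM1 had no value with a mean of at least 5 FPKM. NCAM1 was -0.30, and -0.13 without low IMF animal 10. Other alternatives made its difference larger: it was -0.38 with TMM scaling and -0.47 with 1 animal per shared first 9 digits. With the level of EIF1AY, a gene on chromosome Y, as a term it was -0.44 (limma unadjusted p = 0.068). MYOD1 had an unadjusted p of 0.0411, and without high IMF animal 5 its log2 fold change was -0.35 with an unadjusted p of 0.087. No paired analysis was possible because the labels number no replicates. Depth limits MYF5 most, and 12 animals per group limit all members.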

Other observations

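The 2 animals highest in NCAM1, low IMF animals 10 and 11, also had the highest values of the acetylcholine receptor subunits CHRNA1 and CHRND. The subunit CHRNE was highest in a high IMF animal, at 2.08 FPKM, against at most 1.36 FPKM in low IMF animals. These genes were picked after their values had been seen, so the values are a description. CHRNA1 stood at 5.74 FPKM in low IMF animal 10 and 5.65 FPKM in low IMF animal 11, followed by 5.11 FPKM in high IMF animal 1, and the next animal was at 2.41 FPKM. CHRND stood at 2.62 and 2.12 FPKM in low IMF animals 10 and 11, and the next was at 1.46 FPKM. The runt factor RUNX1 stood at 5.12 FPKM in low IMF animal 10, and the next animal, high IMF animal 6, was at 2.33 FPKM, while low IMF animal 11 was at 1.77 FPKM. Low IMF animal 10 also had the largest TMM factor, 1.35, and the highest summed FPKM of the 4 measured macrophage markers, 13.0, against at most 9.83 in high IMF animals; the part of either in these values was not tested. Embryonic myosin MYH3 was at 6.93 FPKM in low IMF animal 10 but highest in high IMF animal 4, at 8.99 FPKM. Low IMF animal 10 was also the highest animal in MYOG (16.5 FPKM) and the highest of its group in MYF6 (46.5 FPKM), while its MYOD1 was the lowest of its group (13.8 FPKM). Sex is not labelled. EIF1AY, a gene on chromosome Y, ran from 0 to 28.9 FPKM over the animals, with a gap between low and high values. It was at 0 to 0.131 FPKM in high IMF animals 1, 2, 3, 8 and 11 and in low IMF animals 2, 5 and 10. In all other animals it was at 14.3 to 28.9 FPKM. It was at 0 FPKM in low IMF animal 10 and at 15.1 FPKM in low IMF animal 11.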
